A study of Mus musculus with 4 samples.

Results

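The hepcidin and iron-handling genes described here are the 10 rows Hamp, Hamp2, Tfrc, Fth1, Ftl1, Slc40a1, Slc11a2, Trf, Cp and Ireb2, out of 52125 rows measured in mouse stomach corpus, the region that holds the acid-secreting glands. They were taken by gene symbol, and the set was proposed with the difference between the groups already known. Their values are therefore given as a description, and nothing is read from their calls in the fit over all genes. RNA was sequenced from C57BL/6 wild-type mice aged 6 to 8 weeks, with 1 mouse per library. The HDT group (n = 2) received a single intraperitoneal dose of 5 mg per 20 g of body weight and was sampled at 48 hr. In studies of gastric injury these letters commonly stand for high-dose tamoxifen; the labels do not spell them out. The Vehicle group (n = 2) was sampled at 48 hr too, and the protocol text calls such mice untreated, so it is not clear whether they were injected. Each library held 41536686 to 42674985 reads, and all 10 genes passed the filter on low counts.

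Hepcidin is a small secreted peptide hormone that binds ferroportin, the only known exporter of iron from animal cells, and causes it to be degraded, so that iron stays inside the cell. Liver hepatocytes make most of it, and parietal cells of the stomach have been described as another source. Mice carry the tandem copies Hamp and Hamp2, and in the liver Hamp is the one tied to iron balance. Inside cells the iron regulatory proteins bind stem-loops called iron-responsive elements: in the 5′ untranslated region they block translation, as in ferritin mRNA, and in the 3′ untranslated region they protect the mRNA, as in transferrin receptor mRNA.

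Both hepcidin genes lie on the minus strand of chromosome 7 (GRCm38), Hamp2 at chr7:30922372-30924681 and Hamp at chr7:30942368-30944032. The 250 bases before each start site (RefSeq, GRCm38.p6) are shown because the copies differed in level while these windows are alike. The RefSeq start of Hamp2 lies inside the longer gene interval given above, so its window falls within that interval. Of 247 aligned bases 91.9% were identical. Capitals mark matches to GGCGCC, the letters of the BMP-responsive element, and TTCNNNGAA, the letters of a STAT site, with the aligned bases of the other copy.
Hamp2 promoter, chr7:30924182-30924431: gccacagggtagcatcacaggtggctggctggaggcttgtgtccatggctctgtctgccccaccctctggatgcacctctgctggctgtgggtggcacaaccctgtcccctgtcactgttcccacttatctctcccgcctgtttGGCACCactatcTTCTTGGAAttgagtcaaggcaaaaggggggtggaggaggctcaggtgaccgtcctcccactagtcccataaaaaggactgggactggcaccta
Hamp promoter, chr7:30944030-30944279: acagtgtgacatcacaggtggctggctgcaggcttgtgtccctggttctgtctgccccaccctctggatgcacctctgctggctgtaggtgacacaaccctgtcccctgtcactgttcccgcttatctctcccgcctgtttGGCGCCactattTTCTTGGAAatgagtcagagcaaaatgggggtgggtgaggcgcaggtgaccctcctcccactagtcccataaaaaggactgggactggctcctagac
GGCGCC stands 109 bases before the Hamp start, and the aligned Hamp2 bases differ by G4A, counted from 1 at the 5′ end of the motif, with the Hamp base first. The STAT letters are the same in both, 97 bases before the start in Hamp and 94 in Hamp2. The motifs are palindromes and read alike on both strands, and they do not overlap. Of 32851 windows of 250 bases before mouse start sites, 9.59% hold GGCGCC and 7.02% hold TTCNNNGAA, so a match is a description and not a site. CACGTG, the E-box letters searched as well and held by 6.02% of windows, was found in neither copy.

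Hamp2 gave most of the hepcidin reads of this tissue and showed the greatest difference among the 10 genes. It had 331 and 329 reads in HDT, against 4891 and 4440 reads in Vehicle. Scaled by TMM (trimmed mean of M-values) to CPM (counts scaled to a common library size), this was 6.48 ± 0.0586 CPM in HDT and 134 ± 7.08 CPM in Vehicle (SD, n = 2 each). Both HDT libraries lay far below both Vehicle libraries and the libraries within each group lay close together. The log2 fold change, on the log2(value + 1) scale used throughout, was −4.36 (SE 0.071), a 20.7-fold lower mean level. In bulk tissue, fewer cells of a type and less RNA per cell cannot be told apart, and this holds for every gene below.

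Hamp itself had few reads. There were 16 and 15 reads in HDT and 30 and 19 in Vehicle, or 0.311 and 0.297 CPM in HDT and 0.852 and 0.552 CPM in Vehicle. The groups did not overlap, and the log2 fold change of −1.12 had an SE of 0.352. Hamp made up 4.61% and 4.36% of the reads of both copies in HDT, against 0.61% and 0.426% in Vehicle. Hamp2 was thus by far the larger count in every library, with 20.7 and 21.9 Hamp2 reads per Hamp read in HDT and 163 and 234 in Vehicle. The spliced transcripts are 94.6% identical, with a longest shared run of 87 bases, so reads may have been split between the copies and the Hamp counts are uncertain.

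Gm44662, a long noncoding gene on the opposite strand, shares 89 exon bases with Hamp2. It had 816 and 771 reads in HDT and 5066 and 4607 reads in Vehicle, and since the strand setting of the counting is not given, reads from the shared bases cannot be assigned to one of them.

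**Figure D1:**
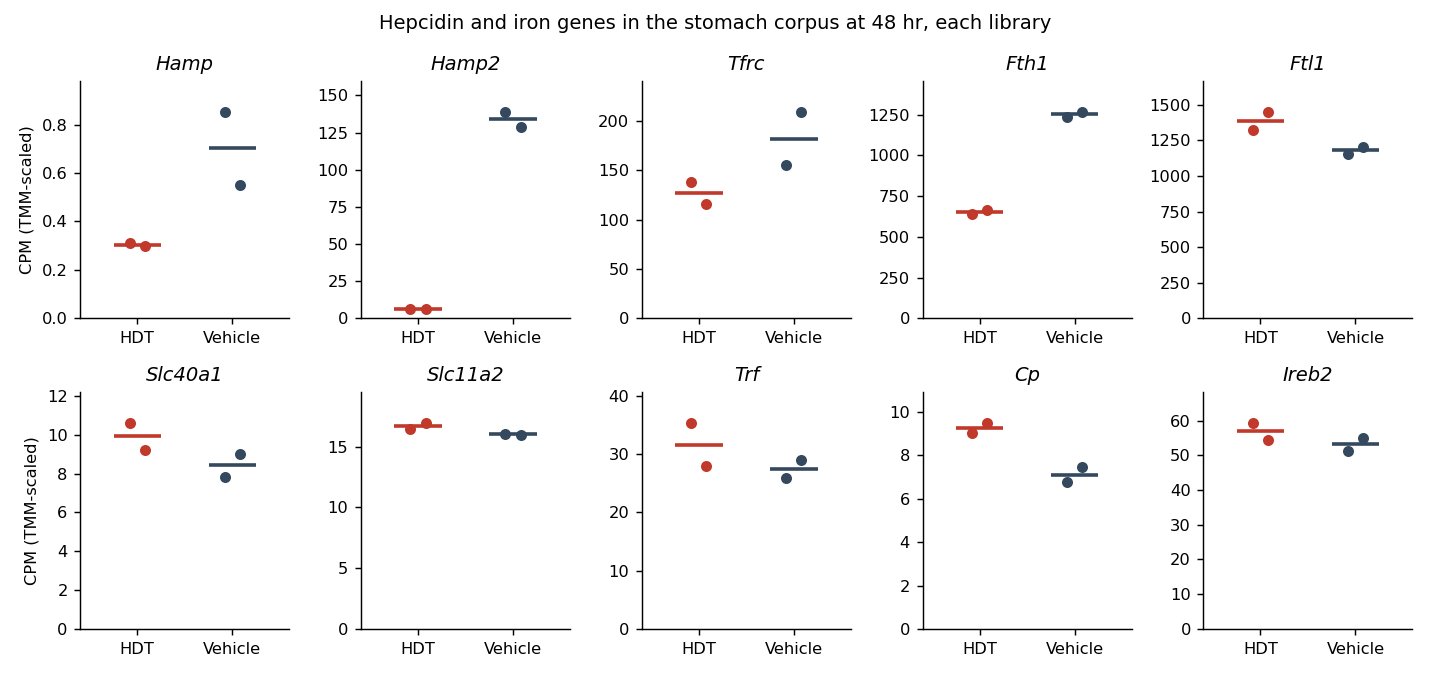
Level in CPM (vertical axis, from 0) of each of the 10 genes, with HDT left and Vehicle right, a point for each library and a bar for the mean of 2. Hamp2, Hamp, Fth1 and Tfrc lie lower in both HDT libraries, Ftl1, Cp, Slc40a1 and Slc11a2 higher, and Trf and Ireb2 overlap.

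Several cell type marker lists moved with Hamp2. Their counts of called genes stand against 18.4% of all tested genes called higher and 19.3% called lower. The 12 listed parietal cell genes summed to 5111 and 5274 CPM in HDT and 15570 and 16620 CPM in Vehicle, with 8 of 12 tested called lower and 1 higher. Car2, which had no call, held 2519 and 3030 CPM of this sum in HDT and 2395 and 2269 CPM in Vehicle. The proton pump gene Atp4a was at 1109 and 880 CPM in HDT and 6782 and 7649 CPM in Vehicle. Within a library there were 0.0114 and 0.0132 Hamp2 reads per read of Atp4b, a proton pump subunit, in HDT, against 0.0294 and 0.0259 in Vehicle, so Hamp2 was also lower relative to this parietal gene. The 6 chief cell genes summed to 45520 and 32190 CPM in HDT and 155700 and 189000 CPM in Vehicle, with 4 of 6 called lower. Most of that sum was Pgc, at 39660 and 29180 CPM in HDT and 139900 and 171700 CPM in Vehicle. The part of parietal and chief cells in the Hamp2 difference was not tested.

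Markers of pancreatic acinar cells, another place where Hamp2 is expressed in mice, summed to 47.3 and 38.2 CPM in HDT and 172 and 430 CPM in Vehicle. Of 19 listed, 12 were tested, 4 were called lower and 1 higher, against 19.3% and 18.4% of all tested genes. The list did not move as one, and its genes given here besides Cela1, Cela2a and Cela3b were named after their values were seen. The carboxypeptidase gene Cpa1 had 0 and 0 reads in HDT and 0 and 556 reads in Vehicle replicates 1 and 2. The lipase gene Pnlip had 4 and 6 reads in HDT and 2 and 979 reads in Vehicle. These enzyme genes were high in Vehicle replicate 2 alone. The trypsinogen gene Try10 had 23 and 12 reads in HDT and 788 and 822 reads in Vehicle, and Try4 had 379 and 346 reads in HDT and 1858 and 2233 reads in Vehicle. The zymogen granule gene Sycn had 25 and 27 reads in HDT and 358 and 288 reads in Vehicle. These 3 genes, like Hamp2, were alike in both Vehicle libraries and far lower in HDT. The defining marker Cela1 had 373 and 446 reads in HDT and 779 and 1530 reads in Vehicle. The other defining markers were high in Vehicle replicate 2 alone. Cela2a had 97 and 101 reads in HDT and 113 and 1154 reads in Vehicle. Cela3b had 3 and 1 reads in HDT and 1 and 370 reads in Vehicle. The acinar transcription factor gene Ptf1a was called higher, with 229 and 142 reads in HDT and 42 and 35 reads in Vehicle. The part of acinar cells in the Hamp2 difference was not tested.

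Of 8 hepatocyte genes tested, 4 were called lower and 1 higher, against 19.3% and 18.4% of all tested genes. The 12 listed summed to 128 and 115 CPM in HDT and 1648 and 1486 CPM in Vehicle. Most of that sum was the apolipoprotein gene Apoa1, at 86.6 and 82.2 CPM in HDT and 1534 and 1379 CPM in Vehicle. The transthyretin gene Ttr, at 30.6 and 25.1 CPM in HDT and 106 and 101 CPM in Vehicle, was called lower too. The albumin gene Alb had few reads, 21 and 35 in HDT and 41 and 33 in Vehicle, and was called lower as well (limma adjusted p = 0.0494). In the other direction, the fetuin gene Ahsg was called higher, with 372 and 230 reads in HDT and 76 and 71 reads in Vehicle. The fibrinogen gene Fga had 1 and 3 reads in HDT and 0 in both Vehicle libraries. Ttr, Ahsg and Fga were named after their values were seen, and the part of liver cells in the Hamp2 difference was not tested.

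**Figure D2:**
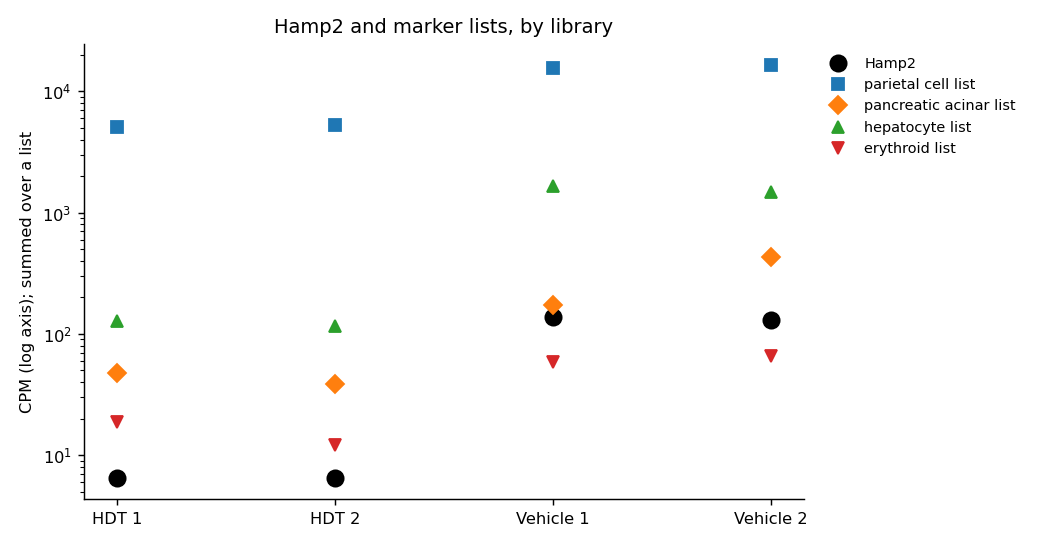
Level in each library (horizontal axis, HDT left of Vehicle) of Hamp2 and of 4 marker lists summed, in CPM on a log axis. Hamp2 and all 4 sums are lower in both HDT libraries, and the acinar sum, whose genes did not move as one, is 172 and 430 CPM in the Vehicle libraries.

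Among tested genes whose higher group averaged 5 CPM or more, the profile nearest to Hamp2 over the 4 libraries was that of Apoa1, followed by those of Rnase1, Try10, Apoa4 and 1810010D01Rik. Nearness is the Euclidean distance between mean-centred log2(CPM + 1) profiles, which was 0.109 for Apoa1 and 0.299 for 1810010D01Rik. With 4 libraries such a profile holds little beyond the group difference.

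The 2 subunits of ferritin, the shell in which cells store iron, differed in opposite directions. Fth1, the heavy subunit that oxidizes iron, was at 643 and 663 CPM in HDT and 1237 and 1267 CPM in Vehicle. The HDT libraries lay close together and well under the Vehicle pair, with a log2 fold change of −0.94 (SE 0.067). Ftl1, the light subunit that aids mineralization, was at 1325 and 1450 CPM in HDT and 1154 and 1207 CPM in Vehicle, with a log2 fold change of 0.23 (SE 0.078). Its groups did not overlap either, but the gap between them was of the size of the gap within HDT.

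The ratio of the subunits does not depend on scaling. There were 0.485 and 0.457 Fth1 reads per Ftl1 read in HDT, against 1.07 and 1.05 in Vehicle, a log2 difference of −1.17 (SE 0.046). Such a ratio of reads compares groups and not the levels of the subunits, since gene lengths differ. Ftl1 shares 355 exon bases with Gm10252 on the opposite strand and 109 with the small RNA gene Gm22133. Gm10252 had 30512 and 31732 reads in HDT and 17149 and 17543 reads in Vehicle, so the Ftl1 count may hold or have lost reads of the shared bases.

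Both ferritin mRNAs carry an iron-responsive element in the 5′ untranslated region, as does ferroportin mRNA. The elements are shown because the ferritin subunits share this element while their mRNA levels differed in opposite directions. They were found in GENCODE M21 transcripts (GRCm38), on the transcript strand, as a bulged C, 5 paired bases (G-T pairs allowed), the loop CAGTGN and the 5 partner bases. Capitals mark the loop.
Fth1, chr19:9982732-9982761, plus strand: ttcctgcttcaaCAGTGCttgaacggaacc
Ftl1, chr7:45459778-45459807, minus strand: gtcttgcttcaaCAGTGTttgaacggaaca
Slc40a1, chr1:45925464-45925493, minus strand: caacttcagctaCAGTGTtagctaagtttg
Such a stretch was found in the 5′ untranslated region of 0.148% of 20899 protein-coding genes. These elements act on translation, which mRNA counts do not show.

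Tfrc encodes the transferrin receptor, which brings transferrin-bound iron into the cell and is abundant in dividing cells. It was at 139 and 116 CPM in HDT and 155 and 209 CPM in Vehicle. The groups did not overlap, but the Vehicle libraries differed from each other by more than the nearest libraries of the 2 groups did. The log2 fold change was −0.51 (SE 0.175), and with the values as deposited it was 0.02, so no direction is given for this gene. The 12 genes of dividing cells were all called higher, against 18.4% of all tested genes. They summed to 953 and 814 CPM in HDT and 276 and 307 CPM in Vehicle. The part of dividing cells in the Tfrc values was not tested. The mRNA has 4 elements of the rule above in its 3′ untranslated region on chromosome 16 (plus strand), a region where 0.595% of 21685 genes have a match.
Tfrc, chr16:32631219-32631248: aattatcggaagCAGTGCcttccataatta
Tfrc, chr16:32631598-32631627: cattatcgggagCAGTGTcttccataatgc
Tfrc, chr16:32631663-32631692: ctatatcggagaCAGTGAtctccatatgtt
Tfrc, chr16:32631710-32631739: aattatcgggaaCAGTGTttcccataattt
Relative to Fth1, Tfrc had 0.215 and 0.175 reads per read in HDT and 0.125 and 0.165 in Vehicle, and these groups did not overlap. Relative to Ftl1 the order was the opposite, again without overlap, with 0.105 and 0.0798 reads per read in HDT and 0.134 and 0.173 in Vehicle. The profiles nearest to Tfrc by the same distance were those of Dixdc1, Cpn1, Zfat, Sgms1 and Lmcd1, at 0.057 to 0.126.

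**Figure D3:**
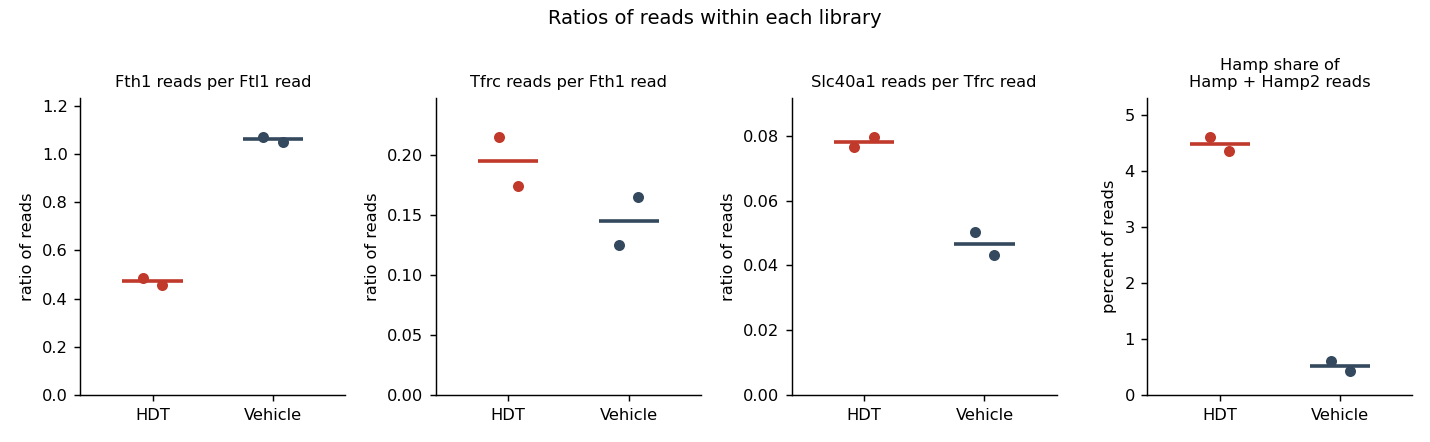
Ratios of reads within each library, with HDT left and Vehicle right, a point for each library and a bar for the mean; the last panel is a percent. Fth1 per Ftl1 is near 0.47 in HDT and 1.06 in Vehicle, and the Hamp share is above 4% in HDT and below 1% in Vehicle.

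The exporter Slc40a1, which is ferroportin, and its partner Cp, the copper-containing ferroxidase ceruloplasmin, had slightly higher means in HDT. Cp was at 9.04 and 9.51 CPM in HDT and 6.76 and 7.46 CPM in Vehicle, with a log2 fold change of 0.38 (SE 0.110). Its groups were apart by more than either pair. Cp shares 108 exon bases with Hps3 on the opposite strand, which had 403 and 363 reads in HDT and 266 and 279 reads in Vehicle. Slc40a1 was at 10.6 and 9.23 CPM in HDT and 7.81 and 9.03 CPM in Vehicle, with a log2 fold change of 0.24 (SE 0.122). Here the nearest libraries of the groups almost touched, and the log2 fold change ranged from 0.133 to 0.355 when any 1 library was left out. Slc40a1 reads per Tfrc read were 0.0766 and 0.0797 in HDT and 0.0504 and 0.0431 in Vehicle.

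Macrophages recycle iron through ferroportin, and the 14 macrophage genes summed to 461 and 387 CPM in HDT and 212 and 223 CPM in Vehicle. Of 12 tested, 7 were called higher and 0 lower, against 18.4% and 19.3% of all tested genes. Cd68 had a log2 fold change of 1.87, while Adgre1, at 0.20, had no call (limma adjusted p = 0.204). Whether macrophages contributed to the values of Slc40a1 or Ftl1 was not tested.

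The remaining 3 genes showed small differences. Slc11a2, the importer DMT1, was at 16.7 ± 0.362 CPM in HDT and 16.0 ± 0.0557 CPM in Vehicle, a log2 fold change of 0.06 (SE 0.079). Ireb2, which encodes iron regulatory protein IRP2, was at 59.4 and 54.3 CPM in HDT and 51.4 and 55.0 CPM in Vehicle, and the groups overlapped. Trf, the plasma iron carrier transferrin, was at 35.4 and 27.9 CPM in HDT and 25.99 and 29.09 CPM in Vehicle, and HDT replicate 1 alone lay above the rest. Trf shares 2108 exon bases with Gm20425 on the same strand, which had 2648 and 2160 reads in HDT and 1621 and 1645 reads in Vehicle. Reads may therefore have been split between them.

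The scaling sets part of these differences. With the values as deposited, the middle log2 fold change over the 18285 genes was 0.53, against −0.001 with TMM, and changes are given relative to the TMM median. On the deposited scale 7 of the 10 genes had positive and 3 negative log2 fold changes, against 6 and 4 with TMM. Hamp2 was at −3.83, Hamp at −0.61 and Fth1 at −0.41 on that scale, so these kept their sign, and Ftl1, Cp and Slc40a1 were at 0.76, 0.91 and 0.77. In limma, a linear model fitted across all genes, 37.7% of tested genes passed an adjusted p of 0.05, 18.4% higher and 19.3% lower. Of the 10 genes, 2 were called higher (Ftl1 and Cp), 3 lower (Hamp2, Hamp and Fth1) and 5 had no call. For 70.8% of tested genes the groups did not overlap, as for 8 of the 10. Since the set was chosen with this comparison known, nothing is read from these counts.

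**Figure D4:**
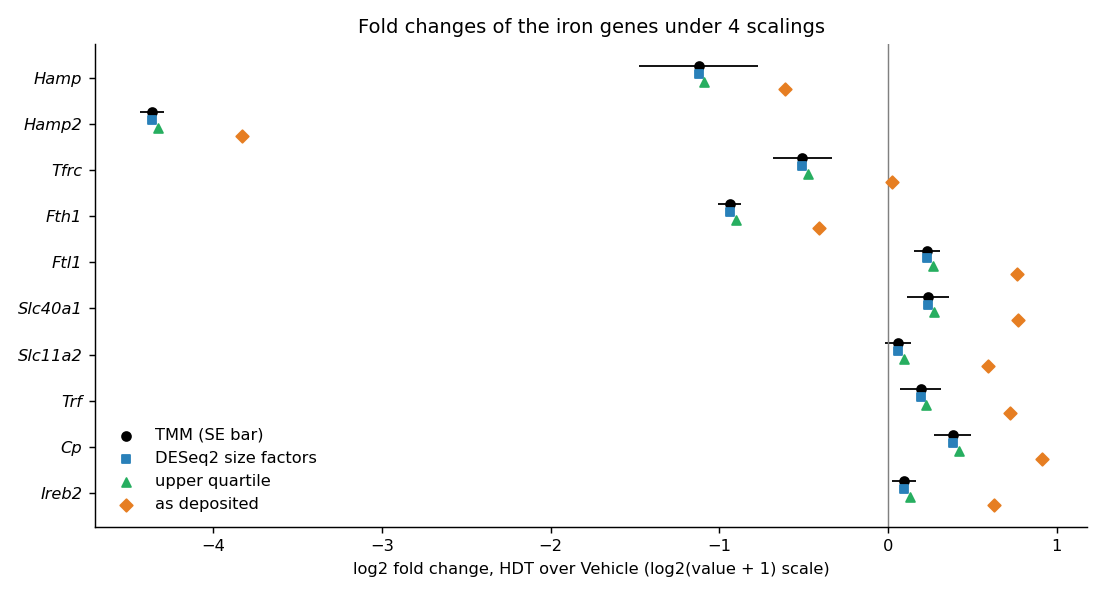
Log2 fold change of HDT over Vehicle (horizontal axis) for each of the 10 genes under 4 scalings, with the SE of the limma fit as a bar on the TMM points. The deposited values lie about 0.5 to the right of the other 3 scalings for every gene, and Tfrc lies at −0.51 with TMM and at 0.02 as deposited.

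Levels were compared between genes per kilobase of exon. Ftl1 was highest, at 1035 ± 66.2 CPM per kb in HDT and 881 ± 27.9 CPM per kb in Vehicle, and Fth1 followed at 188 ± 4.12 and 361 ± 5.95 CPM per kb in the same groups (SD, n = 2 each). In HDT Tfrc came next at 20.6 ± 2.60 CPM per kb and then Hamp2 at 11.1 ± 0.101 CPM per kb, whereas in Vehicle Hamp2 stood above Tfrc, at 230 ± 12.1 CPM per kb against 29.5 ± 6.22 CPM per kb. Trf (9.54 CPM per kb in HDT and 8.29 in Vehicle), Ireb2 (6.00 and 5.61) and Slc11a2 (2.63 and 2.52) came next in both groups. In HDT Hamp2 and Trf were closer together than the SD of Trf. Slc40a1, Cp and Hamp were lowest, all under 1.8 CPM per kb, and their order in Vehicle depended on whether the exon union or the longest coding transcript set the length.

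Beyond these genes, 109 other genes of iron metabolism were grouped in 5 lists by role, and 100 were tested. Of these, 18 were higher and 32 lower in HDT, against 18.4% and 19.3% of all tested genes, and their median log2 fold change was −0.09, against −0.001 over all genes. With the values as deposited 71 were higher and 8 lower, where 11483 of all 18285 tested genes were higher and 998 lower. Fits without Vehicle replicate 1 or Vehicle replicate 2 called fewer genes higher, both in these lists and over all genes.

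Of 26 listed genes that set hepcidin expression 22 were tested, of which 6 rose and 6 fell, and the median was −0.03. Over all tested genes 18.4% were called higher and 19.3% lower, so calls in both directions are not particular to this list. Hfe2, Tfr2, Tmprss6 and Il6 did not pass the filter on low counts, so the list does not cover them. Hfe, the haemochromatosis protein that promotes hepcidin expression in liver, rose to 13.4 ± 0.179 CPM in HDT, against 8.90 ± 0.179 CPM in Vehicle (limma adjusted p = 0.00171). The liver-enriched transcription factor Cebpa, an activator of the hepcidin promoter, rose by 0.68 on the log2 scale, and Smad4, the shared effector of BMP signals, by 0.40. The inhibitory Smads, which are BMP targets themselves, fell together. Smad7 fell by 0.65 on the log2 scale (limma adjusted p = 0.000589), and Smad6 fell to 25.5 ± 0.201 CPM in HDT, against 37.4 ± 0.963 CPM in Vehicle. Atoh8, a transcription factor gene that responds to BMP signals, fell by 0.84 on the log2 scale. Other genes of the list did not fall with them. Id1 had a log2 fold change of 0.11 with no call (limma adjusted p = 0.425), and its groups overlapped. Smad1 rose by 0.30 (limma adjusted p = 0.0103). Id1 and Smad1 were named after their values were seen. On the deposited scale Smad6, Smad7 and Atoh8 were at −0.02, −0.11 and −0.31, without a call. The ligand genes Bmp2 and Bmp6 had log2 fold changes of −0.15 and −0.11 with no call (limma adjusted p = 0.268 and 0.515). Erfe, below the 5 CPM used for naming, was called higher (log2 fold change 1.16, limma adjusted p = 0.00664). It was at 2.05 ± 0.403 CPM in HDT and 0.90 ± 0.128 CPM in Vehicle. Stat3 was called higher too, at 0.27. Bmpr2, Acvr2a and Neo1 were called lower, at −0.33, −0.25 and −0.28, but were positive on the deposited scale. The genes from Bmp2 to Neo1 were named after their values were seen.

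Of 16 iron uptake and transport genes tested, 3 were higher and 5 lower, against 18.4% and 19.3% of all tested genes. Their median was 0.003. Cybrd1, the duodenal ferric reductase, was at 47.9 and 58.5 CPM in HDT and 225 and 163 CPM in Vehicle, a log2 fold change of −1.86 (SE 0.200, limma adjusted p = 0.00445). The fold was similar without HDT replicate 1 (−1.71) or HDT replicate 2 (−1.98), but it was no longer called (adjusted p = 0.114 and 0.0914). The 8 enterocyte genes summed to 95.2 and 107 CPM in HDT and 219 and 208 CPM in Vehicle, with 1 higher and 2 lower of 7 tested and a median log2 fold change of 0.14. Most of the difference in the sum was the apolipoprotein gene Apoa4, at 7.68 and 7.15 CPM in HDT and 129.5 and 127.8 CPM in Vehicle. The defining markers did not move as one. Fabp2 was at 9.97 and 12.1 CPM in HDT and 13.3 and 13.0 CPM in Vehicle, with no call. Fabp1 was called lower, with 50 and 48 reads in HDT and 294 and 209 reads in Vehicle. Its log2 fold change was −2.86 (limma adjusted p = 3.09e-05). Lct was called higher, with 328 and 252 reads in HDT and 39 and 11 reads in Vehicle. Its log2 fold change was 3.19 (limma adjusted p = 0.0284). The part of enterocytes in the Cybrd1 value was not tested. Ncoa4, the receptor that delivers ferritin to lysosomes, fell to 36.8 ± 3.18 CPM in HDT, against 60.3 ± 0.546 CPM in Vehicle (limma adjusted p = 0.000239), and had no call on the deposited scale. The lipocalin receptor gene Slc22a17 fell by 0.79 on the log2 scale, and was at −0.26 without a call on the deposited scale (adjusted p = 0.106). The reductase-family gene Steap1 rose by 0.69 and the iron chaperone gene Pcbp1 by 0.30, which was not called without Vehicle replicate 1 (adjusted p = 0.0573) or Vehicle replicate 2 (0.0521). The number lower was 2 without HDT replicate 1 and 3 without Vehicle replicate 1.

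Among the 9 iron and oxygen sensing genes 2 rose and 2 fell, against 18.4% and 19.3% of all tested genes. The median was −0.09. Aco1, which encodes the cytosolic aconitase that is also iron regulatory protein IRP1, had a log2 fold change of 0.36 (SE 0.080, adjusted p = 0.00955 in limma), and Nfe2l2, the antioxidant regulator NRF2, one of 0.39. Neither was called without Vehicle replicate 1 (adjusted p = 0.0753 and 0.0609), which left 0 higher. The iron-dependent prolyl hydroxylase gene Egln1 fell to 40.8 ± 0.474 CPM in HDT, against 67.6 ± 3.07 CPM in Vehicle (limma adjusted p = 0.000103). Egln3 fell by 0.89 (adjusted p = 0.0482) and was not called without HDT replicate 1 (0.337) or HDT replicate 2 (0.225), the first of which left 1 lower. Its call was also lost with DESeq2 size factors (0.0503), upper-quartile scaling (0.0648), no filter (0.152), edgeR on recovered reads (0.0506) and the deposited values, where it was at −0.36 (0.307).

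In the haem list 5 of 21 tested genes rose and 8 fell, against 18.4% and 19.3% of all tested genes, and the median was −0.21. Hmox1, the inducible oxygenase that frees iron from haem, was at 20.7 and 24.3 CPM in HDT and 15.6 and 13.1 CPM in Vehicle, a log2 fold change of 0.65 (SE 0.115, limma adjusted p = 0.00349). Hmox2, the constitutive form, fell by 0.41 (adjusted p = 0.0014). The scavenger receptor gene Lrp1, which takes up haem bound to haemopexin, rose by 0.42, and the biliverdin reductase gene Blvra by 0.25. The synthesis genes Urod and Fech fell by 0.50 and 0.31. On the deposited scale Hmox2, Urod and Fech were at 0.13, 0.03 and 0.22, so their direction rests on the scaling. Blvra was not called when any 1 library was left out (adjusted p 0.0742 to 0.176), nor Fech without Vehicle replicate 2 (0.0669) or HDT replicate 2 (0.0606). Without either Vehicle replicate, or without HDT replicate 2, 2 haem genes were higher and 5 lower. The erythroid genes summed to 18.6 and 12.2 CPM in HDT and 58.3 and 66.0 CPM in Vehicle, and all 5 tested of 10 listed were lower. One of them, Alas2, is also in the haem list, and whether blood content contributed to other haem genes was not tested.

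Of 32 mitochondrial iron and iron-sulphur cluster genes tested, 2 were higher and 11 lower, and the median was −0.18. Over all tested genes 18.4% were higher and 19.3% lower. Iscu, the scaffold on which clusters are built, was at 31.7 and 34.8 CPM in HDT and 67.5 and 68.7 CPM in Vehicle, a log2 fold change of −1.04 (SE 0.069, limma adjusted p = 2.64e-05). The cluster transfer genes Bola3 and Glrx5 fell by 0.87 and 0.81. Slc25a37, the mitochondrial importer mitoferrin-1, rose to 8.43 ± 0.404 CPM in HDT, against 5.11 ± 0.201 CPM in Vehicle (limma adjusted p = 0.00199). Mms19, of cytosolic cluster assembly, rose by 0.22 (adjusted p = 0.0458) and was not called when any 1 library was left out (0.0593 to 0.26), which left 1 higher each time. On the deposited scale 22 genes of this list were higher and 4 lower, where 11483 of all 18285 tested genes were higher and 998 lower. Iscu, Bola3 and Glrx5 were at −0.50, −0.34 and −0.28 on that scale.

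**Figure D5:**
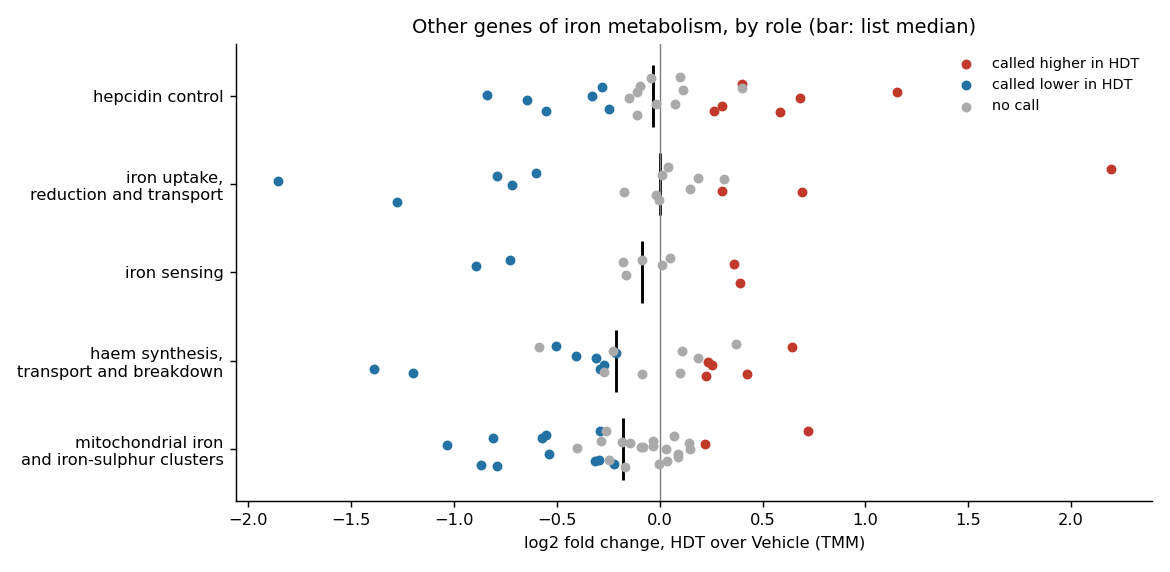
Log2 fold change of HDT over Vehicle with TMM scaling (horizontal axis) of the tested genes in 5 lists of other iron genes, 1 point per gene, coloured by the limma call, with a bar at the list median. Medians lie between −0.21 and 0.003, and Cybrd1 at −1.86 is the lowest point.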

How the data were processed

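Reads were aligned and counted by the authors; the submitters' processing notes list GRCm38, mm10, edgeR, featureCounts, Subread 2.0.0 and STAR 2.7.1a. The sources used here do not give the annotation, strand setting or normalization method. The authors' deposited table holds a signal: normalized gene counts, each a whole number of reads times 1 factor per library (1.11 to 1.14). After division by this factor 100% of values were whole to within 0.01.

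Of 52125 rows, 18285 genes were kept by filterByExpr in edgeR 4.0.16. Deposited values were rescaled by TMM (factors 1.219 and 1.183 for HDT, 0.8476 and 0.818 for Vehicle), transformed as log2(value + 1) and fitted with limma 3.58.1 (trend, robust; median prior degrees of freedom 5.87). The tests were two-sided, with Benjamini-Hochberg adjustment over all genes and a threshold of 0.05. The fold change understates changes of low genes. With 1 mouse per library and 2 per group, p-values rest on few samples. edgeR's quasi-likelihood test on the recovered reads called 3358 genes higher and 3511 lower, against 3369 and 3520 with limma.

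Members and gene lists were chosen with earlier results of these data known. Named genes are all members, the 5 nearest profiles to Hamp2 and Tfrc, and up to 3 called higher and 3 called lower genes of each iron list. These list genes were taken by size of change, from those whose higher group averaged 5 CPM or more and whose groups did not overlap. The first 3 genes of each marker list are its defining markers, and only some of them are named. Other genes were named after their values were seen. The squamous epithelium list summed to 2.59 and 3.15 CPM in HDT and 2.64 and 2.15 CPM in Vehicle, with 0 of 5 tested genes called.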

Additional observations from a re-analysis of the deposited data

How the results depend on the processing

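With the values as deposited, 11483 genes were higher and 998 lower in HDT over all genes, against 3369 and 3520 with TMM, and 71 and 8 of the other iron genes, against 18 and 32. On that scale Fech, Hmox2 and Urod turned to log2 fold changes of 0.22, 0.13 (0.127) and 0.03 (0.029), and Tfrc to 0.02 (0.024). Leaving out 1 library at a time gave 10 to 17 other iron genes higher and 24 to 27 lower, with 10 and 11 higher without Vehicle replicate 1 and Vehicle replicate 2. Replicate numbers are shared between the groups, but the labels do not say that they mark a pairing, and deviations of same-numbered libraries had a correlation of −0.278. With the replicate block 2359 genes were higher and 2623 lower, and 14 and 22 of the other iron genes; Blvra, Mms19, Egln3 and Fech lost their call (adjusted p = 0.104, 0.115, 0.0662 and 0.0507). The crossed replicate block, added after seeing the data, gave 4202 higher and 4323 lower. Depth limits Hamp, with 15 to 30 reads a library, while the other members had at least 238.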
